A study of Mus musculus with 18 samples.

Results

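The genes described are 8 protein-coding genes of cholesterol synthesis, namely Hmgcs1, Idi1, Fdft1, Sqle, Lss, Cyp51, Insig1 and Srebf2. They were picked by symbol, through the Ensembl identifiers of the count tables, and make up 8 of the 54446 gene identifiers counted. All 8 passed the filter on low counts. The data are counts of nascent RNA reads from mouse embryonic stem (mES) cells. Cells were grown with 5-ethynyl uridine (EU), a uridine analogue that enters RNA while it is being made, and the labelled RNA was captured and sequenced.

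There were 18 libraries in 6 groups of 3, namely WT and Tet2-KO mES cells labelled with 1 mM EU for 10, 20 or 40 min. TET2 is a dioxygenase that oxidizes 5-methylcytosine. Tet2-/- and WT cells were each 1 line received from another laboratory, so the replicates are dishes of 1 line and a difference between lines cannot be told apart from the genotype. The p-values given here therefore measure only the spread between dishes. All groups shared a medium with 15% serum, leukaemia inhibitory factor, 3 µM CHIR99021 and 1 µM PD0325901 (inhibitors of GSK3 and MEK), were cleared of feeder cells by 2 passages on gelatin before the experiments, and received EU 42 h after seeding in 6 cm dishes. ERCC spike-in RNA, a set of synthetic transcripts, was added in proportion to total RNA and went through the library preparation. A level per 1000 ERCC reads is thus labelled RNA relative to total RNA, whereas counts per 1000000 gene reads (CPM) give a gene's share of the labelled RNA.

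The libraries held 17931614 to 23069143 reads on genes and 44162 to 512186 on ERCC transcripts. A gene's share was compared after scaling by trimmed mean of M values (TMM), which takes out a factor common to most genes. The median gene was 0.69 higher on the ERCC scale than on the share scale (log2, Tet2-KO over WT averaged over EU times), and every change below is read against that shift. Reads on Tet2 itself did not show the knockout: the Tet2-KO libraries held 9730 to 13011 reads and the WT libraries 13117 to 17092. Its share fell by 0.16 on the log2 scale and its level per ERCC read was 0.54 higher. Counts over the whole gene do not check a deletion of part of it, and "Tet2-KO" below means the libraries labelled so. Of 7 ES cell markers, Sox2, which lies inside Sox2ot on the same strand, was at 0 in all 18 libraries. The summed CPM of the list was 2081 to 2233 in WT and 1447 to 1621 in Tet2-KO libraries. By share, 4 were lower, namely Zfp42 (log2 fold change -2.21), Tdgf1 (-0.74), Klf4 (-0.60) and Nanog (-0.08), Pou5f1 was higher (0.20) and Esrrb was not called (-0.02). Over all genes tested, 27.9% were called lower and 28.6% higher by share. Feeder fibroblast markers summed to 21.5 to 22.9 CPM in the WT 10 min libraries and to 6.46 to 13.9 CPM in the others. At 20 min the feeder markers also differed, with 12.4 to 13.9 CPM in Tet2-KO and 8.06 to 8.40 CPM in WT. Of their defining genes, Lum was at 0 in 17 libraries and Dcn in 6. Primitive endoderm markers summed to 12.3 to 18.2 CPM. The part of these markers in the results below was not tested, and in bulk libraries fewer cells of a type and less RNA per cell cannot be told apart.

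Cells make cholesterol from acetyl-CoA through mevalonate, isoprenoid diphosphates, squalene and lanosterol. The genes of this route are under the transcription factor SREBP2, the product of Srebf2. When sterols are low, SCAP carries SREBP2 from the endoplasmic reticulum to the Golgi, where proteases release its active part. When sterols are high, INSIG proteins hold SCAP back. SREBP2 binds sterol regulatory elements near its targets, often beside CCAAT and GC boxes, which NF-Y and Sp1 bind.

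RefSeq promoter windows (GRCm38.p6, 250 bases before to 50 after the annotated start) were found for 6 of the 8 genes, but not for Sqle and Fdft1. On both strands they were searched for the sterol regulatory element TCACNCCAC, the CCAAT box, the GC box GGGCGG and the cAMP response element TGACGTCA. The first was in 1.24% of the 32851 windows, and among the 6 only in that of Hmgcs1, at bases -137 to -129. The CCAAT box and the GC box, in 37.4% and 35.7% of all windows, were each in 6 of 6. Of 15 windows of other enzymes of the route, 11 held the CCAAT box, 12 the GC box and 0 the sterol regulatory element. Only exact matches were sought, so a variant of an element would be missed. TGACGTCA, in 1.79%, was in none. Bases upstream of the start are printed for Hmgcs1, which had the lowest log2 fold change of the share among the 8 genes, and for both regulators, with matches to the motifs in capitals, on either strand and with no overlap between them. They run 5′ to 3′ on the + strand, from chr13:119690101-119690350, chr5:28071162-28071362 and chr15:82147019-82147180.
Hmgcs1: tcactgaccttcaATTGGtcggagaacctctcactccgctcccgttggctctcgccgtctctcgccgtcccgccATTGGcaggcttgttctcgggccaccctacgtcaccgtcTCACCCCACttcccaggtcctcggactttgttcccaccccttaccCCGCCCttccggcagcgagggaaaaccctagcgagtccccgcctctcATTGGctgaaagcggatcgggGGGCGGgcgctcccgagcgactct
Insig1: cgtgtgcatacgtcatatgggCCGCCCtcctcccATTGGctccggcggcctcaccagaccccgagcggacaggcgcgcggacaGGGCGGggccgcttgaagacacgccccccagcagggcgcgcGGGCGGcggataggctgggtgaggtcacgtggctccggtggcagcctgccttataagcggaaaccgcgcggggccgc
Srebf2: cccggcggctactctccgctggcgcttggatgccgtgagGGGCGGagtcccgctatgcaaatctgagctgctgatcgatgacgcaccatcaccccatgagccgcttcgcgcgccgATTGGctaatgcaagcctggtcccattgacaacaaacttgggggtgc
The Hmgcs1 stretch holds 3 kinds of match and the other two hold CCAAT and GC boxes. The Insig1 and Srebf2 stretches stop where the gene begins in the GENCODE annotation, short of the RefSeq start from which positions are counted, so 3 further GC boxes of Srebf2, between -79 and -29, are not shown. A match is a description of letters, not a bound site.

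Hmgcs1 encodes cytosolic HMG-CoA synthase, an early enzyme of the route (ENSMUSG00000093930, mm10 chromosome 13, 119690379 to 119708260, + strand). Levels per 1000 ERCC reads in WT were 2.54, 2.84 and 2.60 at 10 min, 7.37, 9.72 and 7.44 at 20 min and 13.3, 15.4 and 13.3 at 40 min. In Tet2-KO they were 4.20, 3.83 and 4.44, 7.62, 9.01 and 9.36 and 18.4, 16.0 and 16.5. Every Tet2-KO library lay above every WT library at 10 and 40 min, and the groups overlapped at 20 min. Here and for the genes below, how many of all genes lay apart in this way was not counted. As a share, WT libraries gave 54.5, 55.9 and 60.7 CPM at 10 min, 51.0, 61.8 and 53.1 at 20 min and 54.7, 59.4 and 55.7 at 40 min. The Tet2-KO libraries gave 43.8, 42.7 and 44.1, 39.8, 41.8 and 44.4 and 42.8, 43.8 and 41.7 CPM. On this scale all Tet2-KO libraries lay below all WT libraries at each time. Averaged over times, Hmgcs1 was higher per ERCC read by 0.34 ± 0.06 (log2 ± SE) and lower as a share by a log2 fold change of -0.36 ± 0.04 (quasi-likelihood test of edgeR, Benjamini-Hochberg adjusted over all genes, adjusted p = 4.45e-08 and 3.48e-10). It had the lowest value of the 8 on both scales.

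Idi1 encodes isopentenyl-diphosphate isomerase, which interconverts the 5-carbon isoprenoid units (ENSMUSG00000058258, chromosome 13, 8885501 to 8892451, + strand). Per 1000 ERCC reads, the WT libraries gave 1.31, 1.39 and 1.12 at 10 min, 3.41, 4.25 and 3.27 at 20 min and 6.09, 6.96 and 7.37 at 40 min. The Tet2-KO libraries gave 2.45, 2.91 and 2.96, 5.08, 5.49 and 4.97 and 9.85, 9.48 and 9.67. These groups did not overlap at any time. Its share was 28.2, 27.3 and 26.2 CPM in WT at 10 min, 23.6, 27.0 and 23.3 at 20 min and 25.0, 26.9 and 30.8 at 40 min. In Tet2-KO it was 25.6, 32.4 and 29.4, 26.5, 25.5 and 23.5 and 22.9, 25.9 and 24.4 CPM. The shares overlapped at each time. Idi1 was higher per ERCC read by 0.71 ± 0.07, close to the median of all genes (0.70), and its share differed by 0.02 ± 0.05, not called by edgeR (adjusted p = 0.731). The sign of the latter value turned to -0.02 when shares were taken of total gene reads with no TMM factor.

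Fdft1 encodes squalene synthase, the first enzyme committed to sterols (ENSMUSG00000021273, chromosome 14, 63145150 to 63179578, − strand). WT libraries held 6.57, 7.20 and 5.86 reads per 1000 ERCC reads at 10 min, 21.9, 21.6 and 21.5 at 20 min and 37.4, 39.9 and 34.4 at 40 min. Tet2-KO libraries held 11.3, 10.2 and 10.9, 23.6, 26.8 and 26.5 and 52.0, 42.7 and 51.8. All Tet2-KO values were above all WT values of the same time. The WT shares were 141, 142 and 137 CPM at 10 min, 152, 138 and 153 at 20 min and 154, 154 and 144 at 40 min. The Tet2-KO shares were 118, 113 and 108, 123, 124 and 126 and 121, 117 and 131 CPM. As with Hmgcs1, the order was reversed on this scale and the groups did not overlap at any time. The differences averaged 0.45 ± 0.05 per ERCC read and -0.24 ± 0.02 as a share (edgeR adjusted p = 2.80e-16 and 1.03e-10).

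Sqle encodes squalene epoxidase, an oxygen-dependent and rate-limiting step (ENSMUSG00000022351, chromosome 15, 59315077 to 59331192, + strand). Its WT levels per 1000 ERCC reads were 2.03, 1.95 and 1.72 at 10 min, 7.02, 8.28 and 6.33 at 20 min and 11.9, 12.5 and 11.3 at 40 min. Those in Tet2-KO were 3.82, 3.53 and 3.93, 7.26, 9.13 and 8.13 and 16.6, 15.1 and 15.5. The Tet2-KO libraries were above WT at 10 and 40 min and overlapped it at 20 min. As a share, WT gave 43.7, 38.5 and 40.2 CPM at 10 min, 48.6, 52.7 and 45.1 at 20 min and 48.7, 48.3 and 47.2 at 40 min. Tet2-KO gave 39.8, 39.4 and 39.0, 37.9, 42.3 and 38.5 and 38.7, 41.2 and 39.0 CPM. The shares overlapped at 10 min and were apart, with Tet2-KO lower, at 20 and 40 min. The averaged difference was 0.52 ± 0.06 per ERCC read and -0.17 ± 0.04 as a share (edgeR adjusted p = 1.93e-16 and 0.000184).

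Lss encodes lanosterol synthase, which closes the sterol rings (ENSMUSG00000033105, chromosome 10, 76531588 to 76557138, + strand). It had the fewest reads of the 8, down to 406 in a library. Levels per 1000 ERCC reads were 1.34, 1.23 and 0.900 in WT at 10 min, 4.42, 4.29 and 4.07 at 20 min and 6.14, 6.95 and 6.88 at 40 min. In Tet2-KO they came to 2.27, 2.02 and 2.27, 4.69, 5.38 and 5.00 and 9.31, 8.25 and 9.29. Tet2-KO was above WT without overlap at each time. The shares in WT were 28.7, 24.2 and 21.0 CPM at 10 min, 30.6, 27.3 and 29.0 at 20 min and 25.2, 26.9 and 28.8 at 40 min. Tet2-KO shares were 23.7, 22.5 and 22.6, 24.5, 25.0 and 23.7 and 21.7, 22.6 and 23.4 CPM. WT was widely spread at 10 min and overlapped Tet2-KO there, but lay above it at 20 and 40 min. The averaged difference was 0.53 ± 0.07 per ERCC read and -0.16 ± 0.05 as a share (edgeR adjusted p = 6.54e-14 and 0.00545).

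Cyp51 encodes lanosterol 14α-demethylase, a cytochrome P450 (ENSMUSG00000001467, chromosome 5, 4081145 to 4104746, − strand). Per 1000 ERCC reads it measured 1.84, 1.56 and 1.59 in WT at 10 min, 4.51, 5.53 and 4.87 at 20 min and 8.29, 8.76 and 9.61 at 40 min. The corresponding Tet2-KO levels were 3.09, 2.56 and 2.94, 6.22, 7.07 and 7.41 and 13.7, 12.8 and 12.7. No Tet2-KO library overlapped WT. WT shares were 39.4, 30.7 and 37.1 CPM at 10 min, 31.2, 35.2 and 34.7 at 20 min and 34.1, 33.9 and 40.2 at 40 min. Those of Tet2-KO were 32.2, 28.5 and 29.2, 32.5, 32.8 and 35.1 and 32.0, 34.9 and 32.0 CPM. The shares overlapped at all 3 times. Per ERCC read the difference was 0.60 ± 0.06 (edgeR adjusted p = 1.65e-19). As a share it was -0.09 ± 0.05 (edgeR adjusted p = 0.102), and this became a call in the fit without WT 10 min replicate 2 (-0.13, adjusted p = 0.0105), with no filter on low counts (-0.11, adjusted p = 0.0282) and with no TMM factor (-0.13, adjusted p = 0.0193).

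Insig1 encodes the sterol-responsive partner of SCAP and is itself a target of SREBP2 (ENSMUSG00000045294, chromosome 5, 28071363 to 28078662, + strand). WT libraries gave 1.96, 2.25 and 1.93 reads per 1000 ERCC reads at 10 min, 4.90, 5.23 and 5.52 at 20 min and 8.32, 8.40 and 8.25 at 40 min. For Tet2-KO the levels were 3.00, 3.23 and 2.95, 5.69, 7.03 and 6.62 and 12.0, 9.27 and 10.1. Tet2-KO lay above WT at each time. In CPM, WT libraries held 42.2, 44.2 and 45.1 at 10 min, 33.9, 33.3 and 39.4 at 20 min and 34.2, 32.5 and 34.5 at 40 min. Tet2-KO libraries held 31.2, 36.0 and 29.3, 29.7, 32.6 and 31.4 and 28.0, 25.3 and 25.5. Tet2-KO was below WT at each time on this scale, and the share at 10 min exceeded that at 40 min in both genotypes. CPM carry no TMM factor. With TMM scaling Insig1 was not called at 20 min (-0.15, edgeR adjusted p = 0.115), and with no TMM factor it was (-0.19, edgeR adjusted p = 0.0466). The averaged difference was 0.40 ± 0.06 per ERCC read and -0.29 ± 0.04 as a share (edgeR adjusted p = 9.93e-10 and 5.30e-07).

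Srebf2 encodes SREBP2, the activator of the pathway (ENSMUSG00000022463, chromosome 15, 82147181 to 82205379, + strand). It is the only one of the 8 that shares bases with other genes of its strand, Mir33 and Gm49502, over 2179 bases. Its levels per 1000 ERCC reads in WT were 6.60, 7.02 and 5.73 at 10 min, 20.6, 22.4 and 21.1 at 20 min and 33.1, 35.1 and 33.2 at 40 min. They were 13.0, 11.6 and 13.7, 25.4, 29.4 and 27.8 and 57.5, 47.8 and 53.1 in Tet2-KO. The groups were apart at each time, with Tet2-KO higher. The WT shares of 142, 138 and 134 CPM at 10 min, 143, 143 and 151 at 20 min and 136, 136 and 139 at 40 min varied little. So did the Tet2-KO shares of 135, 129 and 136, 133, 136 and 132 and 134, 131 and 134 CPM. The shares overlapped at 10 min and were narrowly apart, with Tet2-KO lower, at 20 and 40 min. With TMM scaling the difference at 40 min was not called (-0.03, edgeR adjusted p = 0.522). Srebf2 was 0.66 ± 0.05 higher per ERCC read (edgeR adjusted p = 4.46e-31). Its share differed by -0.03 ± 0.02 (edgeR adjusted p = 0.169), and this became a call without WT 10 min replicate 3 (-0.05, adjusted p = 0.0334) and with no TMM factor (-0.07, adjusted p = 0.00199).

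**Figure D1:**
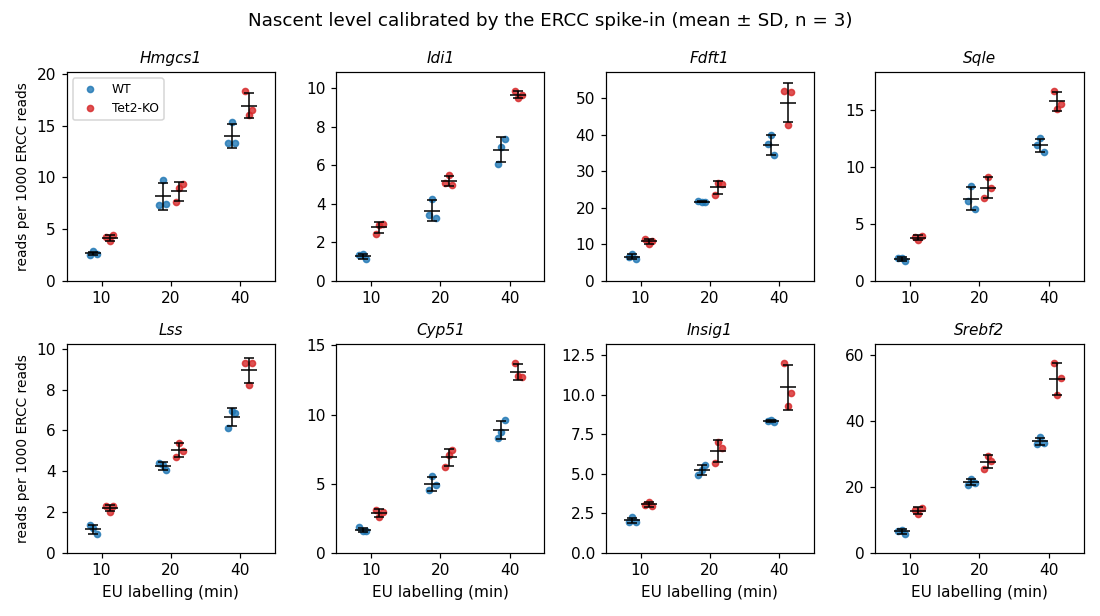
Reads per 1000 ERCC reads (y axes) of each of the 8 genes against EU time in min (x axes), 1 point per library, WT in blue and Tet2-KO in red, with the mean and SD of 3 libraries. Levels rise with EU time, and red lies above blue at 10 and 40 min in all 8 panels, while Hmgcs1 and Sqle overlap at 20 min. How many of all genes lay apart in this way was not counted. Of all genes tested, 79.0%, 53.7% and 68.2% were called higher in Tet2-KO on this scale at 10, 20 and 40 min.

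Over the 8 genes, the summed level per 1000 ERCC reads averaged 23.7, 76.5 and 128 in WT at 10, 20 and 40 min and 42.3, 93.5 and 176 in Tet2-KO. Averaged over EU times, 8 of 8 were higher in Tet2-KO on this scale, where 80.5% of the 19910 genes tested were called higher. Their median log2 fold change was 0.53, against 0.70 for all genes tested, and 7 of the 8 lay below that median. At 10 min 8 of 8 were higher (79.0% of all genes) and at 40 min 8 of 8 (68.2%). At 20 min 5 of 8 were higher (53.7%), and the others were Hmgcs1 (0.09 ± 0.10), Sqle (0.18 ± 0.10) and Lss (0.24 ± 0.12). At each time the shares of the 8 called stand beside backgrounds in which most genes were called. Some calls rested on single libraries. The call of Hmgcs1 at 40 min (0.28) was lost without WT replicate 1 or replicate 3 of that time (0.24 in both cases) or Tet2-KO replicate 1 (0.22), and that of Insig1 (0.33) without the latter (0.22). At 20 min Insig1 (0.30) was not called without WT replicate 1 (0.26) or Tet2-KO replicate 2 (0.24), and Fdft1 (0.24) without Tet2-KO replicate 2 (0.21) or 3 (0.22). Sqle at 20 min was called without WT replicate 2 (0.29) or Tet2-KO replicate 1 (0.26), and so was Lss without Tet2-KO replicate 1 (0.29).

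The genotype difference per ERCC read was smaller at 40 than at 10 min for 5 of the 8 genes by the interaction term, where 19.3% of all genes were called lower. These were Idi1 (-0.61 ± 0.16, edgeR adjusted p = 0.00374), Sqle (-0.58 ± 0.15, 0.00265), Lss (-0.50 ± 0.16, 0.0213), Srebf2 (-0.34 ± 0.13, 0.0432) and Fdft1 (-0.33 ± 0.13, 0.0485). The median over all genes of this term was -0.29. Of the 18 fits that each left out 1 library, 12 lost the call of Fdft1 (range -0.41 to -0.24), 11 that of Srebf2 (-0.41 to -0.26) and 5 that of Lss (-0.62 to -0.34). The calls of Idi1 and Sqle held in all 18. Hmgcs1 (-0.37, adjusted p = 0.0554) was called lower with DESeq2, with at least 10 counts in every library (-0.37 in both) and without WT 10 min replicate 2 (-0.42) or Tet2-KO 10 min replicate 2 (-0.42) or 40 min replicate 1 (-0.43).

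As a share of gene reads, the 8 genes together took 507 ± 11.0, 520 ± 8.16 and 516 ± 4.06 CPM in WT at 10, 20 and 40 min (mean ± SD, n = 3). In Tet2-KO they took 444 ± 6.31, 454 ± 7.02 and 444 ± 5.53 CPM. Averaged over times, 5 of 8 were lower and 0 higher, where 27.9% of all genes were lower and 28.6% higher. The 5 were Hmgcs1, Insig1, Fdft1, Sqle and Lss, and the median over the 8 was -0.17, against 0.00 over all genes. These 5 stayed lower in each of the fits that left out 1 library.

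**Figure D2:**
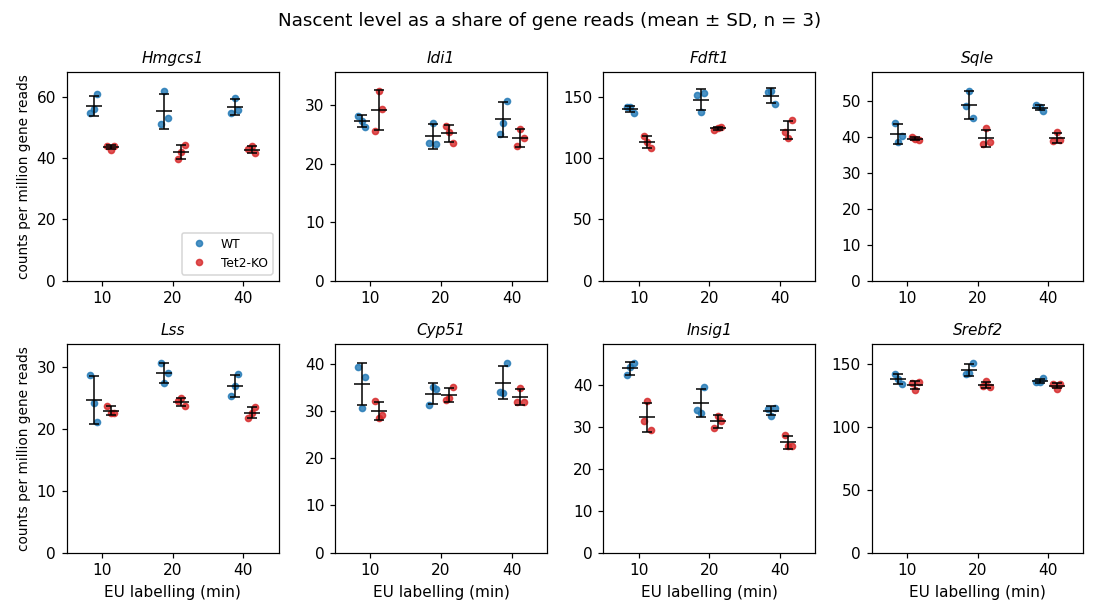
Counts per 1000000 gene reads (CPM, y axes) of each of the 8 genes against EU time in min (x axes), 1 point per library, WT in blue and Tet2-KO in red, with the mean and SD of 3 libraries. Red lies below blue at each time for Hmgcs1, Fdft1 and Insig1, whereas Idi1 and Cyp51 overlap throughout. How many of all genes lay apart in this way was not counted. Of all genes tested, 21.4%, 18.2% and 18.6% were called lower in Tet2-KO by share at 10, 20 and 40 min.

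By time, 3 of 8 shares were lower at 10 min (21.4% of all genes lower, 22.5% higher), namely those of Hmgcs1, Insig1 and Fdft1. Cyp51 (-0.18, adjusted p = 0.0683) joined them with no TMM factor (-0.25), with at least 10 counts in every library (-0.19), with no filter on low counts (-0.19) and without WT replicate 2 (-0.29) or Tet2-KO replicate 1 (-0.23) of that time. At 20 min 5 of 8 were lower (18.2% lower, 20.3% higher), and these were Hmgcs1, Sqle, Fdft1, Lss and Srebf2. At 40 min 5 of 8 were lower (18.6% lower, 19.7% higher), this time Hmgcs1, Sqle, Insig1, Fdft1 and Lss. None of the 8 was called higher at any of the times by edgeR, although Idi1 at 10 min became higher without Tet2-KO 10 min replicate 1 (0.26, adjusted p = 0.0229). Hmgcs1 and Fdft1 were called at each time, with log2 fold changes from -0.39 to -0.32 and from -0.28 to -0.21. The calls of Lss at 20 min (-0.21 ± 0.09, adjusted p = 0.0471) and of Srebf2 at 20 min (-0.09 ± 0.03, adjusted p = 0.0379) were close to the threshold, and were lost in 12 (-0.25 to -0.17) and 8 (-0.10 to -0.07) of the 18 fits that each left out 1 library. That of Lss at 40 min was lost without WT 40 min replicate 2 (-0.25) or 3 (-0.19) or Tet2-KO 40 min replicate 1 (-0.22) or 2 (-0.24). In the same fit the change of the difference from 10 to 40 min was called for 1 gene lower, Sqle (-0.29 ± 0.09, adjusted p = 0.0369), and 0 higher, where 6.12% of all genes were lower and 3.89% higher. This call was lost in 10 of the 18 fits, with values between -0.33 and -0.24 over all of them, the smallest without WT 10 min replicate 2 (adjusted p = 0.108).

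Within a genotype, shares at 40 min were compared with those at 10 min. In WT, 4 of 8 shares were higher (22.8% of all genes), those of Sqle (0.34 ± 0.06), Lss (0.23 ± 0.08), Fdft1 (0.21 ± 0.04) and Srebf2 (0.09 ± 0.03). Insig1 was the 1 that was lower (-0.28 ± 0.07, 22.0% of all genes). In Tet2-KO, Fdft1 was the 1 higher (0.16 ± 0.04, 20.1%) and Insig1 the 1 lower (-0.25 ± 0.08, 16.8%). In CPM, feeder fibroblast markers were at their highest in WT at 10 min, the baseline of the WT comparison. The calls of Lss and Srebf2 in WT held in neither the fit without WT 10 min replicate 2 (0.19 and 0.07) nor that without replicate 3 (0.10 and 0.04). They were also lost without WT 40 min replicate 2 (0.20 and 0.07) or 3 (0.18 and 0.08), and that of Srebf2 without WT 10 min replicate 1 (0.08). That of Insig1 in Tet2-KO was lost without Tet2-KO 10 min replicate 2 (-0.15) or 40 min replicates 2 (-0.21) or 3 (-0.22). Idi1 in Tet2-KO (-0.21, adjusted p = 0.0715) was called lower with no TMM factor (-0.25), upper-quartile factors (-0.26), at least 10 counts in every library (-0.23) or no filter (-0.22), and without Tet2-KO 10 min replicate 1 (-0.29).

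The rate at which labelled RNA accumulated was taken as the slope of the level per 1000 ERCC reads on EU time over the 9 libraries of a genotype. In WT it was highest for Fdft1 (0.989 ± 0.080 per min, slope ± SE) and Srebf2 (0.870 ± 0.085), the genes of longest span. It was lowest for Lss (0.174 ± 0.019), whose span of 25551 bases came next in length. The ratio of the Tet2-KO to the WT slope was 1.16 ± 0.13 for Hmgcs1, 1.19 ± 0.16 for Insig1, 1.24 ± 0.14 for Sqle and 1.27 ± 0.11 for Idi1. It was 1.27 ± 0.13 for Fdft1, 1.27 ± 0.16 for Lss, 1.43 ± 0.13 for Cyp51 and 1.52 ± 0.17 for Srebf2. The median of 1.27 compares with 1.56 for the summed reads of all protein-coding genes. From 10 and 20 min alone the median ratio was 0.985 and from 20 and 40 min alone 1.53. With the 2 earlier times, the ratio was 0.818 for Hmgcs1, 0.831 for Sqle and 0.913 for Lss. For Fdft1 (0.981), Srebf2 (0.989) and Idi1 (1.02) it was close to 1, and it was above 1 for Insig1 and Cyp51 (1.22). No SE is given for these ratios, so their directions are not settled. The median ratio thus depended on which times were used. The protein-coding total was not fitted on such parts of the times, so these swings have no value over all genes beside them.

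Reads were counted over whole gene bodies, introns included, so levels were compared between genes per kb of gene span. In WT, over 9 libraries, Insig1 had 5.16 ± 0.69 CPM per kb (mean ± SD), Fdft1 4.24 ± 0.21, Idi1 3.81 ± 0.33 and Hmgcs1 3.15 ± 0.20. Sqle followed with 2.85 ± 0.28, Srebf2 with 2.41 ± 0.09, Cyp51 with 1.49 ± 0.14 and Lss with 1.05 ± 0.12. Neighbours in this order overlapped in range, except that Srebf2 was above Cyp51 and Cyp51 above Lss in every library. In Tet2-KO the order was Insig1 (4.09), Idi1 (3.77), Fdft1 (3.49), Sqle (2.45), Hmgcs1 (2.39), Srebf2 (2.29), Cyp51 (1.36) and Lss (0.911). Per kb of merged exons, the length first planned, Fdft1 and Srebf2 led instead in WT (34.5 and 19.5 CPM per kb).

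The remaining enzymes of the route, 13 genes examined here, had a median share difference of -0.15, with 6 lower, 2 higher and 5 not called. Of all genes tested, 27.9% were called lower and 28.6% higher by share, which is the background for the lists below too. Ebp, a sterol isomerase, had -0.61 as a share, and Dhcr7, which reduces a sterol double bond late in the route, -0.21. Pmvk, phosphomevalonate kinase, and Lbr, a sterol reductase that is also the lamin B receptor, were higher, at 0.46 and 0.11. Fdps, with 3 to 37 reads in a library, was at 0.55 ± 0.26 and not called (edgeR adjusted p = 0.0687).

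**Figure D3:**
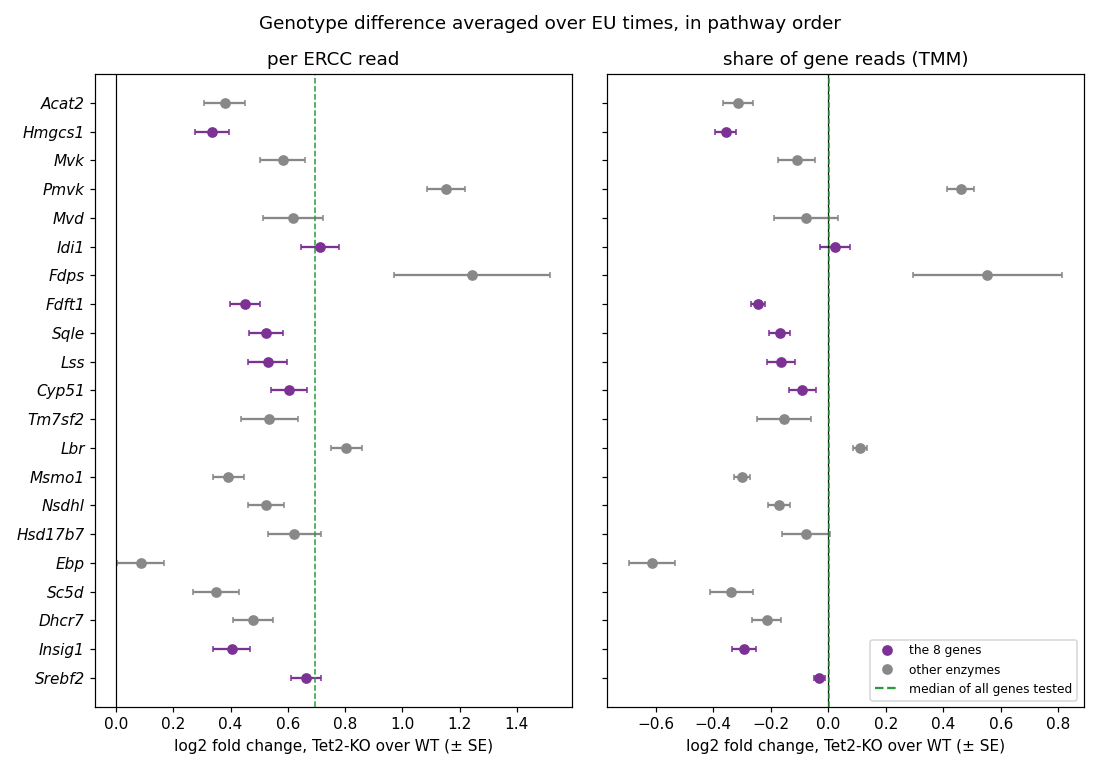
Log2 fold change of Tet2-KO over WT averaged over EU times (x axes, ± SE), per ERCC read on the left and as a share of gene reads on the right, for the enzymes from Acat2 to Dhcr7 in pathway order and the regulators Insig1 and Srebf2 below (y axis). The 8 genes are purple, the other enzymes grey and the median of all genes tested is the dashed line. Ebp lies farthest to the left on both scales, and on the share scale Idi1 is the only one of the 8 to the right of 0.

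Among 10 genes of SREBP control and sterol handling, 9 could be tested (Rnf139 was at 0 in all libraries), and 4 shares were higher, 4 lower and 1 not called, with a median of -0.09. The higher ones included the machinery that frees SREBP: Scap, the escort of SREBP, at 0.23, and the proteases Mbtps1 and Mbtps2 at 0.12 and 0.16. Stard4, a sterol carrier, was at 0.45.

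In the branch to other isoprenoids (11 genes) 4 shares were higher, 4 lower and 3 not called, with a median of -0.04. The higher ones were Rabggtb (0.43) and Pggt1b (0.25), subunits of prenyl transferases, Ggps1 (0.19), which makes geranylgeranyl diphosphate, and Pdss2 (0.04), of ubiquinone synthesis. Of 7 genes of the sterol sensor LXR and of sterol efflux, 1 was higher, 4 lower and 2 not called, with a median of -0.22. The lipid exporter Abca1 was at 0.67, its relative Abcg1 at -0.71 and Apoe, an apolipoprotein, at -0.85. Fatty acid synthesis, largely under SREBP1, had 6 of 10 shares higher, 1 lower and 3 not called, with a median of 0.14. Acss2, acetyl-CoA synthetase, was at 0.53 and the desaturase gene Scd2, the 1 lower, at -0.29. On the ERCC scale, where 80.5% of all genes tested were called higher, the higher ones were 12 of 13 other enzymes, 9 of 9 control genes, 11 of 11 isoprenoid genes, 5 of 7 LXR and efflux genes and 10 of 10 fatty acid genes.

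The shares of the 8 genes were correlated in pairs. Over the 18 libraries, the 28 pairwise correlations of their shares (log2, TMM-scaled) had Pearson r from -0.26 (Idi1 with Fdft1) to 0.75 (Lss with Srebf2). The median r was 0.35. All libraries share the genotype and time structure, so these values are a description. The genes whose share ran most like the mean of the 8, of 10879 ranked, were Zmat3 (r = 0.95), Sdc4 (0.94), Rbl2 (0.93), Nrp2 (0.93) and Sgta (0.92), over 18 libraries. None of the 5 is an enzyme of the route.

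The 8 genes lie on 5 chromosomes, and their protein-coding neighbours within 500 kb were examined for the same averaged share difference, for which 28.6% of all genes tested were called higher and 27.9% lower. Around Hmgcs1, 9 neighbours were tested, with 6 lower, 1 higher and a median of -0.61, the lowest of the 8 surroundings. The well-covered ones among them were Paip1 (-0.75, 2087 to 5207 reads in a library), 4833420G17Rik (-0.61, 868 to 2410 reads), Zfp131 (-0.09) and Tmem267 (0.70). Gm21761 (-2.51), B020031M17Rik (-2.09) and Gm20767 (-2.45), all farther along the chromosome arm, had at most 14 reads in a Tet2-KO library and 2 to 58 in a WT library. The 2 nearest, Nim1k at 1.834 kb (-0.15) and Ccl28 at 36.020 kb (0.08), were not called. Next to Fdft1, Neil2, a DNA glycosylase gene 2.865 kb away, fell by 1.13 on the log2 scale, and Blk, with at most 31 reads in a library, was at 1.51. Htr5a near Insig1 was at -1.85 and Cyp2d34 near Srebf2 at 1.09, the latter with at most 24 reads in a library. Around Srebf2, 16 of 28 neighbours were higher and 3 lower (median 0.24), while Srebf2 itself was at -0.03. Around Sqle 0 of 9 were lower, and around Cyp51 3 of 10 were lower, close to the share over all genes.

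**Figure D4:**
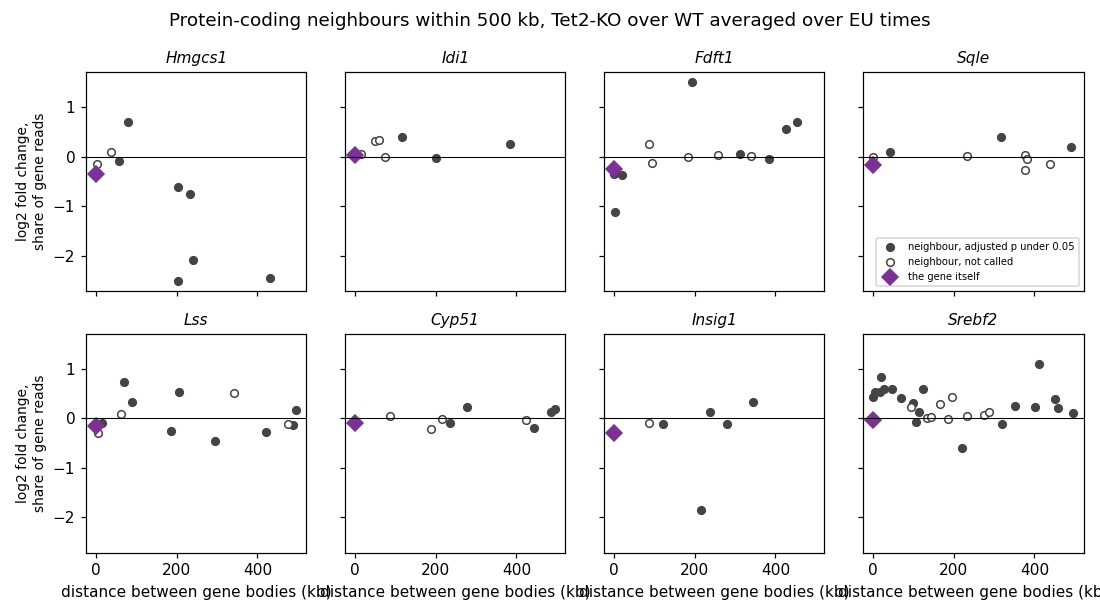
Log2 fold change of Tet2-KO over WT in share of gene reads, averaged over EU times (y axes), of protein-coding genes within 500 kb of each of the 8 genes against the distance between gene bodies in kb (x axes). Purple diamonds are the 8 genes, filled points neighbours called at an adjusted p under 0.05 and open points those not called. Most points lie near 0, and the lowest ones sit in the Hmgcs1 panel.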

How the data were processed

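EU-labelled RNA was measured in 18 libraries of mES cells, 3 for each genotype and EU time. Per the labels and the methods of the study, the authors trimmed reads with Trimmomatic 0.39, aligned them to mm10 with HISAT2 2.2.1 and counted them per gene with HTSeq 0.12.4, with ERCC transcripts in the same table. The deposited values are raw counts, not normalized, 1 column per library. Summary rows that name no gene, 20.9% to 24.9% of reads in a library, were left out.

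The feature counted was checked on the files. Of protein-coding genes inside an intron of a gene on the same strand, 201 of 226 were at 0 in all libraries, against 60 of 446 inside one on the other strand and 1549 of 11842 without overlap. Counts thus cover gene bodies by strand, and antisense partners of the 8 genes are counted apart. Levels between genes were therefore given per kb of gene span, a choice made after seeing the data. How reads were spread along the span was not examined. Over 5177 well-covered genes without overlap, reads had a Spearman rho of 0.34 with span and 0.32 with merged exon length. These close values do not decide between the lengths. Of 54446 identifiers, 54409 were found in the GENCODE annotation used for names and positions.

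Genotypes were compared with edgeR 4.0.16 (R 4.3.3, quasi-likelihood test, Benjamini-Hochberg adjustment over all 19910 genes that passed filterByExpr, threshold 0.05) in 1 fit of 6 groups. Library sizes were ERCC read totals in 1 fit and TMM-scaled gene reads in the other. Fold changes are log2 with their SE. On simulated counts, edgeR recovered 195 of 200 genes changed by 1.5-fold for the genotype difference averaged over EU times, and called 11 unchanged ones. The simulation had no shift common to all genes, and its ERCC reads followed gene reads. It therefore does not check the choice of scale. DESeq2 1.42.0, other scalings, other filters, a replicate block and the omission of each library were alternatives. Same-numbered libraries were not taken as pairs: over 45 pairs their deviations correlated with r from -0.07 to 0.06.

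The 8 genes and the lists were chosen with earlier results of these data known. Named from the lists were genes called against their list's median or with an absolute log2 share difference above 0.5, with Dhcr7. Some genes of the lists are not reported here, and list counts leave them out. Named among neighbours were those above 1, and those of Hmgcs1 below it were named after their values were seen. Slopes are least squares with an intercept. Counting 406 to 3550 reads per gene and library limits the precision, but does not alone set it on the ERCC scale. For Fdft1 and Srebf2, with the most reads, the averaged SE was 0.052 per ERCC read, against 0.024 and 0.019 as a share. All genes of a library share its ERCC total, so the 8 calls on that scale are not independent of each other. No molecular identifiers were used, so reads are not independent molecules.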

Additional observations from a re-analysis of the deposited data

Results flagged for a closer look

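Of the differences between the genotypes that changed with EU time, 6 were called by edgeR's interaction term (40 against 10 min, Tet2-KO over WT, log2). Per ERCC read these were Sqle (-0.58), Idi1 (-0.61), Fdft1 (-0.33), Lss (-0.50) and Srebf2 (-0.34), and as a share of gene reads Sqle (-0.29). Of all genes tested, 19.3% were called lower by this term per ERCC read and 6.12% as a share. Of the 18 fits that each left out 1 library, the call was lost in 12 for Fdft1, 11 for Srebf2 and 5 for Lss per ERCC read and in 10 for Sqle as a share. Each term says that the Tet2-KO to WT ratio was lower at 40 than at 10 min. All genes tested had a median of -0.29 for this term per ERCC read and of 0.00 as a share. In CPM, feeder fibroblast markers were higher in the WT 10 min libraries than in any other group, and their part in these differences was not tested.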

How the results depend on the processing

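The direction of the 8 genes depends on the scale. Per ERCC read 8 of 8 were higher on average and as a share 5 of 8 lower, and neither count changed by over 1.5 times under any alternative tried. The second did change: with no TMM factor Cyp51 (-0.13) and Srebf2 (-0.07) were called lower too, and with no filter Cyp51 (-0.11). Other counts moved by more. The lower interaction terms per ERCC read numbered 3 in place of 5 with ERCC size factors by the median of ratios, with no filter on low counts and with the replicate block, and the one as a share fell to 0 with no TMM factor. In WT the higher shares at 40 against 10 min numbered 2 in place of 4 with at least 10 counts in every library, no TMM factor or upper-quartile factors. In Tet2-KO the higher ones numbered 0 with upper-quartile factors, and the lower ones 2 with those, with no TMM factor, with at least 10 counts in every library and with no filter. The replicate block also ended the call of the lower Lss share at 20 min (-0.21, edgeR adjusted p = 0.0513), and it changed no other call but those of Fdft1 and Srebf2 in the interaction. The cause of these shifts was not tested.

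With no TMM factor, signs turned for Idi1 averaged (-0.017), for Sqle (-0.049) and Srebf2 (-0.047) at 10 min, for Cyp51 at 20 min (-0.011), for Fdft1 (0.0083) and Srebf2 (0.0042) in the interaction and for Hmgcs1 (-0.012) and Srebf2 (-0.012) over time in WT. Over time in Tet2-KO, signs turned for Hmgcs1 (-0.026), Lss (-0.026) and Srebf2 (-0.0074). With upper-quartile factors they did so for Hmgcs1 (-0.037), Sqle (-0.0023), Lss (-0.036) and Srebf2 (-0.018), and with at least 10 counts for Hmgcs1 (-0.0097) and Lss (-0.0094). Rates from 10 and 20 min alone put the median ratio at 0.985, Hmgcs1 at 0.818, Sqle at 0.831, Lss at 0.913, Fdft1 at 0.981 and Srebf2 at 0.989. From 20 and 40 min the median was 1.53.

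Leaving out 1 library at a time, the genes higher per ERCC read numbered 3 to 7 at 20 min and 6 to 8 at 40 min, and those with a lower interaction term 2 to 6. Lower shares numbered 5 to 6 on average, 3 to 4 at 10 min, 3 to 5 at 20 min, 4 to 5 at 40 min and 0 to 1 for the interaction, with 0 to 1 higher at 10 min. Over time, 2 to 4 were higher in WT, and 1 to 2 higher and 0 to 2 lower in Tet2-KO. The median rate ratio ranged from 1.20 to 1.33. Signs turned for shares near 0, namely at 10 min for Lss (-0.15 to 0.076), Sqle (-0.031 to 0.059) and Srebf2 (-0.014 to 0.042), and at 20 min for Cyp51 (-0.022 to 0.064). They also turned for Idi1 averaged (-0.0042 to 0.056), Cyp51 over time in WT (-0.0095 to 0.16), Insig1 in the interaction (-0.031 to 0.12) and Lss over time in Tet2-KO (-0.0030 to 0.049).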
